A study of Mus musculus with 2 samples.

Results

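Mitochondrial ribosomal proteins are the protein parts of the ribosome that works inside mitochondria. Their genes were chosen by symbol, Mrpl or Mrps followed by a digit, among the probe sets annotated to a single gene, and the probe set with the highest geometric mean of both arrays stood for its gene. The rule found 76 genes of the 18193 genes with a single-gene probe set, 47 named for the large subunit and 29 for the small subunit. RefSeq lists 78 protein-coding genes with such symbols, and Mrpl30 and Mrpl53 were not analysed here, since the annotation gives their probe sets, 2 and 1 in number, to several genes. The data are expression signals from mouse liver on 2 Affymetrix arrays, 1 per group. The first group had received antagomir-122, a chemically modified oligonucleotide directed against the liver microRNA miR-122. The second, the control group, had received mm-antagomir-122, which the labels call scrambled. In both groups the daily dose was 80 mg/kg, given on 3 successive days, and livers were taken 24 h after the last dose. RNA from 3 livers was combined for each array, so each value below is that of a pool. Strain, sex and age of the mice are not given in the sources used here. The question is how the liver transcripts of this protein family, and of its large against its small subunit, compared between the pools.

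The mitochondrial ribosome makes the few proteins that mitochondrial DNA encodes, all of them subunits of the respiratory chain complexes and ATP synthase. Its small subunit binds the messenger RNA and holds the decoding site, and its large subunit joins the amino acids and releases the chain at the inner membrane. Its RNA is transcribed inside the organelle, whereas every one of its proteins is encoded in the nucleus, made in the cytosol and imported. Some of these proteins have counterparts in bacterial ribosomes and others are found only in mitochondria. Hepatocytes are rich in mitochondria, and they are the cells in which miR-122 is abundant.

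Each group had a single array, so replicate error is unknown, no test was made, and no p-value is given. The sizes below are those of these 2 pools. A ratio is log2 of the antagomir-122 signal over the control signal, so a negative ratio means a lower signal in the antagomir-122 pool. The floor for a measured gene was a mean signal of 238, the 60th percentile of the probe sets, and 10003 genes passed it. All 76 mitochondrial ribosomal protein genes passed it on their brightest probe set, with signals from 308 to 4101 in the antagomir-122 pool and from 454 to 4296 in the control pool. The trimmed means of the arrays were equal, and the median ratio of the 10003 genes was 0.00. The 18 probe sets of the hybridization controls, which are spiked into each sample, had a median ratio of -0.27 (SD 0.18), and scaling on them would add 0.27 to every ratio. Directions are therefore given relative to the bulk of the genes. Markers of hepatocytes, the labelled tissue's main cells, had a median ratio of -0.02 over 9 genes, with signals from 7418 to 34477 in the antagomir-122 pool. The upper end of that range was the highest signal on that array. Whether ratios at such high signals follow the amount of RNA was not tested. The 4 markers of skeletal muscle had mean signals under the floor, as had the 4 of cholangiocytes, although Epcam of the latter read 37.1 in the antagomir-122 pool and 834 in the control pool. All 16 leukocyte and macrophage markers were higher in the antagomir-122 pool as deposited, with a median of 0.50, while 49.6% of all genes lay below 0. Their summed signal was 69194 against 47035 in the control pool. The marker with the lowest signal, Cd3e, read 151 and 90.3, under the floor. Of 6 endothelial markers 4 were higher, with a median of 0.04, and of 6 stellate and fibroblast markers 4 were higher, with a median of 0.08. In pooled tissue, fewer cells of a type and less RNA per cell cannot be told apart. The part of these other cells in the ratios below was not tested.

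Most mitochondrial ribosomal protein genes had lower signals in the antagomir-122 pool, relative to the bulk of the genes. As deposited, 59 of the 76 ratios lay below 0, or 77.6%, against 49.6% of all 10003 genes and 50.1% of the 6677 genes within the family's range of signals. Their median ratio was -0.23, or 1.17-fold lower, with the middle 50% of genes between -0.38 and -0.02. The signal summed over the brightest probe sets of the family was 111298 in the antagomir-122 pool and 126647 in the control pool. Scaled on the hybridization controls, the direction turned, with 29 of the 76 below 0 and a median of 0.05, against 15.9% of all genes below 0 and a median of 0.28. The distance from the median of all genes was thus -0.23 under either scaling, and it was -0.20 with quantile normalization and -0.19 with loess correction. As deposited, on the hybridization controls and after loess correction 59 of the 76 genes lay below the median of all genes, and after quantile normalization 58 did. After quantile normalization 59 lay below 0, against 50.4% of all genes.

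Single changes were small. At a threshold of 1.5-fold, 4 of the 76 genes were lower and 0 were higher, against 2.62% and 5.12% of all genes. Just inside the threshold were Mrpl48 at 1.61-fold and Mrps22 at 1.54-fold lower, and just outside it Mrps5 at 1.49-fold and Mrpl40 at 1.48-fold lower. The counts are small, and the shift of the family shows in its median more than in genes past a threshold. The SD of the difference between a gene's brightest and second probe sets was scaled down to that of a single reading. This probe set spread, an estimate of the measurement error of a ratio, was 0.26 on the log2 scale over 26 of these genes. It was 0.28 over 3860 genes in all. Real differences between a gene's transcripts are part of it, and differences between mice are not.

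**Figure D1:**
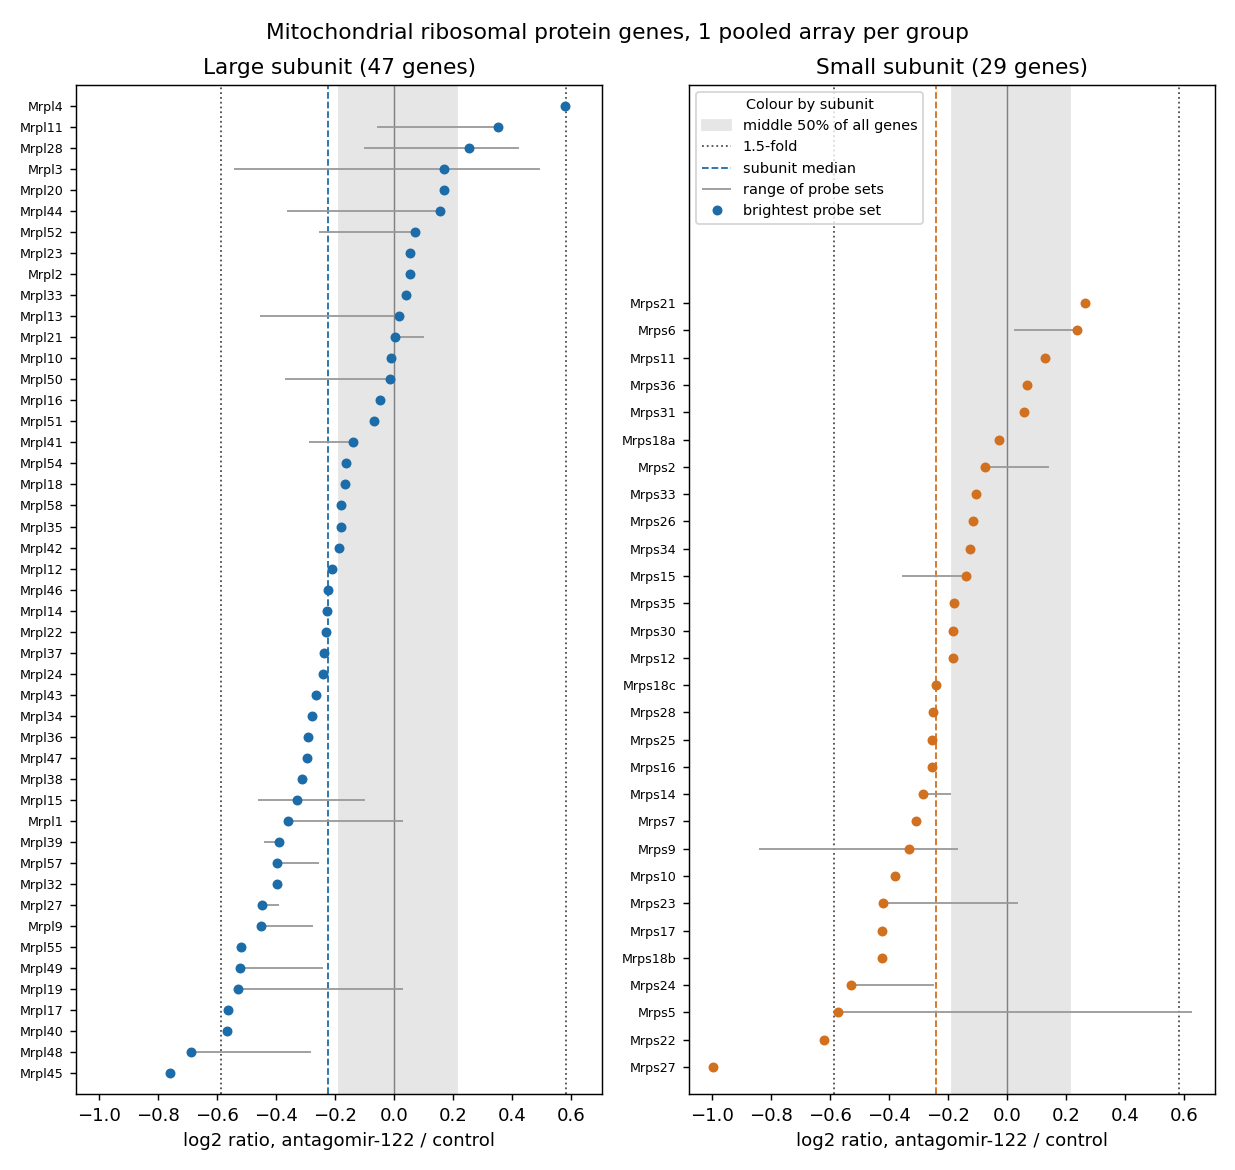
Log2 ratios of the 47 large-subunit and 29 small-subunit genes, antagomir-122 over control, each from 1 pooled array per group; dots are the brightest probe set, grey lines run over all probe sets of the gene above the floor, the shaded band holds the middle 50% of all 10003 genes, and dotted lines mark 1.5-fold. Of the 76 dots, 59 lie left of 0 as deposited (29 after scaling on the hybridization controls), and the dashed subunit medians lie at -0.22 and -0.24.

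The 47 large-subunit genes had a median of -0.22, with 35 below 0, and the 29 small-subunit genes had a median of -0.24, with 24 below 0. The large-subunit median was thus higher by 0.01, a difference whose sign changed with the choice of floor and of probe sets, and the ratios spread by 0.27 (SD) between genes within either subunit. Each subunit had 2 genes at least 1.5-fold lower and 0 at least 1.5-fold higher. Of all genes above the floor, 49.6% lay below 0, 2.62% were at least 1.5-fold lower and 5.12% at least 1.5-fold higher. The counts past 1.5-fold are too small to be set apart from these shares. Scaled on the hybridization controls, the medians were 0.05 and 0.04. The symbols do not follow the structure in every case: Mrps18a and Mrps30, named for the small subunit, are known as large-subunit proteins, and Mrps36 is known as a part of the 2-oxoglutarate dehydrogenase complex. Mrps18a had signals of 1243 and 1268 in the antagomir-122 and control pools, a ratio of -0.03. Mrps30 had signals of 937 and 1063, a ratio of -0.18. Mrps36 had signals of 1295 and 1236, a ratio of 0.07. With the first pair moved to the large subunit and Mrps36 left out, the medians were -0.21 for the large and -0.25 for the small subunit.

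Among small-subunit proteins, Mrps27, a pentatricopeptide repeat protein of the kind that binds RNA, had the lowest ratio of the family. Its signal was 308 in the antagomir-122 pool and 614 in the control pool, or 1.99-fold lower, on its only probe set. Mrps22, a protein found only in mitochondrial ribosomes and mutated in forms of human mitochondrial disease, read 922 and 1415, or 1.54-fold lower. Mrps5, the counterpart of bacterial protein S5, read 639 and 950, a ratio of -0.57. Mrps24, the counterpart of bacterial S3 at the messenger RNA entry, read 1526 and 2202, a ratio of -0.53. In all these genes the antagomir-122 pool was the lower, although other probe sets of Mrps5 went the other way, as given below. Mrps18b and Mrps18c, relatives of bacterial S18 along with Mrps18a, had ratios of -0.42 and -0.24. Mrps12, the counterpart of the decoding-site protein S12, read 1908 and 2167, a ratio of -0.18.

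Among large-subunit proteins, Mrpl45, which helps to hold the ribosome at the inner membrane near the exit of the nascent chain, had the lowest ratio. It read 943 in the antagomir-122 pool and 1594 in the control pool, or 1.69-fold lower, on its only probe set. Mrpl48 read 733 and 1180, or 1.61-fold lower, and Mrpl40 read 518 and 767, a ratio of -0.56. Both belong to the central protuberance, the crown of the large subunit, which is built largely of mitochondrial proteins. Mrpl17, the counterpart of bacterial L17, read 2354 and 3472, a ratio of -0.56. Mrpl19, the counterpart of L19, read 395 and 569, a ratio of -0.53, and Mrpl49 read 588 and 843, a ratio of -0.52. Mrpl55 read 769 and 1100, also a ratio of -0.52. In each of these the control pool was the higher, by 1.43-fold to 1.69-fold. Mrpl12, the stalk protein that is also known to bind mitochondrial RNA polymerase, read 3667 and 4235, a ratio of -0.21.

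Scaled on the hybridization controls, Mrps27 alone of the 76 was still at least 1.5-fold lower, at a ratio of -0.72, and Mrpl45, Mrpl48 and Mrps22 stood at -0.48, -0.41 and -0.34. With quantile normalization or loess correction, Mrpl40 joined these 4 past 1.5-fold. On the hybridization controls, Mrpl4 and Mrpl11 were at least 1.5-fold higher, at ratios of 0.85 and 0.63. The shares of all genes past 1.5-fold under these scalings are not given here, so the counts cannot be read against them.

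A smaller set had higher signals in the antagomir-122 pool. Mrpl4, the counterpart of bacterial L4, which lines the exit tunnel, had the highest ratio. It read 2006 in the antagomir-122 pool and 1342 in the control pool, a ratio of 0.58 on its only probe set, just under 1.5-fold as deposited and past it with quantile normalization (0.60), with loess correction (0.60) and scaled on the hybridization controls (0.85). Mrpl11, of the stalk base where translation factors bind, read 1191 and 931, a ratio of 0.35. Mrps21, the counterpart of bacterial S21, read 1800 and 1499, a ratio of 0.26. Mrpl28 and Mrps6, counterparts of L28 and S6, read 2226 and 1864, and 779 and 661, with ratios of 0.26 and 0.24. The further probe sets of Mrpl11 above the floor had ratios of 0.10 and -0.06, with a mean over all 3 of 0.13, so its place rests on the brightest. The next by ratio were Mrpl3 and Mrpl20 at 0.17, Mrpl44 at 0.16, Mrps11 at 0.13 and Mrpl52 at 0.07. In all, 17 of the 76 genes had ratios above 0, 12 of the large and 5 of the small subunit.

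**Figure D2:**
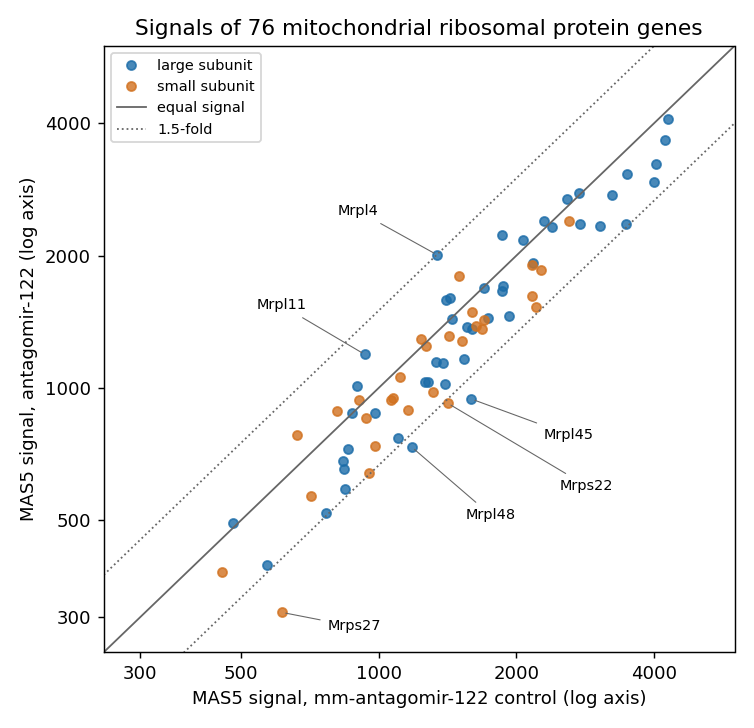
MAS5 signals of the 76 genes in the antagomir-122 pool against the control pool, both on log axes, coloured by subunit; the solid line marks equal signals and dotted lines mark 1.5-fold. As deposited, 59 points lie below the line of equal signal (29 after scaling on the hybridization controls), Mrps27, Mrpl45, Mrpl48 and Mrps22 lie past 1.5-fold below it, and Mrpl4 lies on the upper dotted line.

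The genes were also divided, after their values were seen, by whether the protein has a bacterial counterpart. The 45 with a counterpart had a median ratio of -0.23, with 32 below 0, and the 28 found only in mitochondria had a median of -0.20, with 25 below 0. The remaining 3, Mrpl55, Mrps28 and Mrps36, were not placed. Of all genes above the floor, 49.6% lay below 0 and 2.62% were at least 1.5-fold lower. The medians of both kinds lay close together. The 4 genes at least 1.5-fold lower were all of the mitochondrial kind. The 5 with the highest ratios all had bacterial counterparts, as had 45 of the 76 genes. These few genes at the ends of the order do not set the kinds apart. This division was chosen with the ratios known and carries no test.

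The 76 genes had 156 single-gene probe sets, of which 119 were above the floor. A second probe set above the floor was present for 26 genes, and it serves as another reading of the same RNA on the same arrays, so it is no replicate of the animals. Of these second probe sets, 20 lay below 0, against 53.1% for second probe sets of all genes. Both were below 0 in 15 of the 26 genes, against 33.1% of all genes that had one. In 3 both were above 0, against 29.2% of all such genes, and in 8 the directions were opposite, against 37.7%. The median ratio of the 26 was -0.31 on the brightest and -0.26 on the second probe set. Counting every further probe set above the floor, 30 of 43 lay below 0, against 52.5% of such probe sets in all genes, with a median of -0.24 against -0.02. Of the 26 second probe sets 0 were at least 1.5-fold lower and 1 was at least 1.5-fold higher, against 3.86% and 5.08% of second probe sets in all genes. Mrpl15 had 5 probe sets above the floor, with ratios from -0.46 to -0.10. Mrpl9 had 3, from -0.45 to -0.27, and those of Mrpl39 had -0.39 and -0.44. In these genes every reading above the floor was lower in the antagomir-122 pool as deposited, while probe sets of Mrpl15 under the floor went both ways.

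In other genes the probe sets disagreed. For Mrps5 the 4 probe sets ran from -0.57 on the brightest to 0.63 on the second (signals 545 and 353), with a mean of 0.16, so its place among the low genes rests on the brightest. Mrpl3, a protein near the catalytic centre, had ratios of 0.17, -0.54 and 0.50. Mrps9 had ratios from -0.84 to -0.16 and Mrpl19 from -0.53 to 0.03. Mrpl44, which has a fold like that of ribonuclease III, ran from -0.36 to 0.16, and Mrpl28 from -0.10 to 0.42. These 6 were the genes whose probe sets above the floor differed by over 0.5. The second probe set of Mrpl48 read 841 and 1021, a ratio of -0.28, in the same direction as the brightest and under 1.5-fold. Those of Mrps24 and Mrpl49 had ratios of -0.25 and -0.24, against -0.53 and -0.52 on the brightest. Mrps27, Mrpl45, Mrps22 and Mrpl4 each had a single probe set in all, so the largest ratios have no second reading. When a gene's probe sets above the floor were averaged, the count of genes at least 1.5-fold lower was 3.

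**Figure D3:**
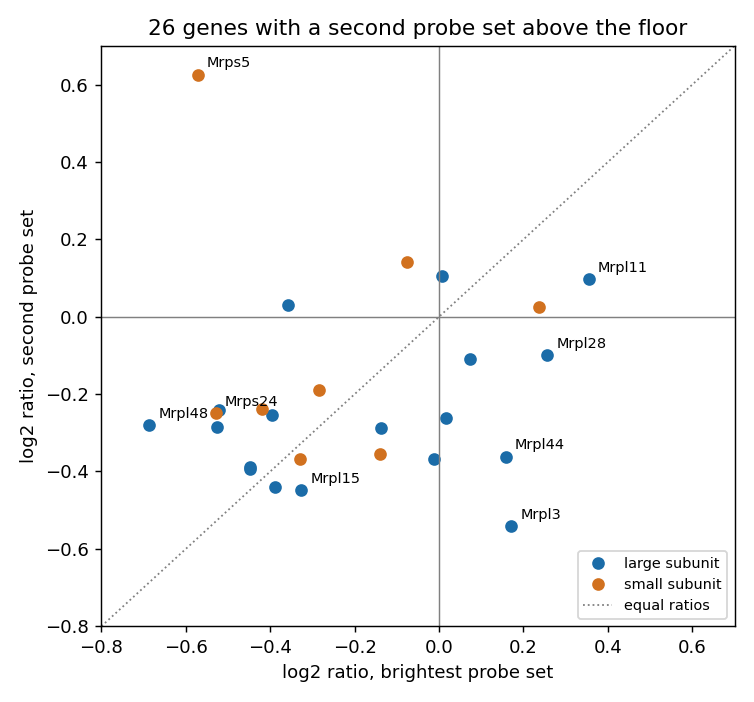
Log2 ratio of the second probe set against that of the brightest for the 26 genes that had both above the floor, coloured by subunit; the dotted line marks equal ratios. As deposited, 15 of the 26 points lie at the lower left, 3 at the upper right and 8 at opposite signs, among them Mrps5 at the upper left and Mrpl3 at the lower right.

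The family's distance from other genes of like signal was larger among its dim genes than among its bright ones. In the dimmest 26 genes (mean signal 416 to 1086) 19 ratios lay below 0, with a median of -0.25. In the middle 25 genes 20 lay below 0, with a median of -0.24, and in the brightest 25 (1675 to 4197) 20 did, with a median of -0.18. Of all genes in the same 3 signal spans, 46.0%, 54.4% and 57.1% lay below 0, a share that rose with signal. All genes of these spans had medians of 0.03, -0.03 and -0.04, so the family's median stood -0.28, -0.21 and -0.15 from them. No test of this order was made. The ratios of the dimmest members spread more widely (SD 0.31) than those of the brightest (SD 0.20). Of the 37 probe sets of these genes that were under the floor, 17 lay below 0, or 45.9%, with a median of 0.02. For probe sets under the floor in all genes the share was 43% and the median 0.12. The shares are near each other, so nothing is read from these dim signals. Probe sets whose suffix (s or x) marks possible cross-hybridization represented 6 genes, with a median of -0.21. Those whose suffix (a) marks several transcripts of a gene represented 23, whose median was -0.25, and for the remaining 47 it was -0.21.

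The remaining proteins of mitochondrial translation were taken from lists chosen with earlier results of these data known. Of all genes above the floor, 49.6% lay below 0 as deposited, 2.62% were at least 1.5-fold lower and 5.12% at least 1.5-fold higher. The lists are small, and no test was made. Of 6 mitochondrial ribosomal proteins without an Mrp symbol, 4 had a single-gene probe set under the listed name, and another, Ict1, is listed here as Mrpl58, a member with a ratio of -0.18. All 4 were lower in the antagomir-122 pool as deposited, and on the hybridization controls Ptcd3 and Chchd1 turned above 0. Gadd45gip1 read 1088 and 1649, or 1.52-fold lower, Dap3 of the small subunit read 1406 and 1789, a ratio of -0.35, and Chchd1 and Ptcd3 had ratios of -0.26 and -0.09. Of 11 translation factors above the floor, 9 had ratios below 0 and the median was -0.23, with 0 past 1.5-fold in either direction. Oxa1l, which inserts new chains into the inner membrane, had the lowest ratio, -0.57, and Tufm, the elongation factor that brings tRNA to the ribosome, had the highest, 0.39. Of 22 assembly and rRNA modification genes, 15 had ratios below 0 and the median was -0.21. Of these 1 was at least 1.5-fold lower, the RNA helicase gene Ddx28, with a signal of 143 in the antagomir-122 pool, under the floor, and 563 in the control pool.

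The counts that follow also stand beside 49.6% of all genes below 0, 2.62% at least 1.5-fold lower and 5.12% at least 1.5-fold higher. Of 18 genes for mitochondrial tRNA charging, 11 lay below 0, with a median of -0.11. In this list 3 genes were at least 1.5-fold lower, namely Tars2 (293 and 519), Gatb (295 and 442) and Ears2 (218, under the floor, and 329), and 1 was at least 1.5-fold higher, Sars2 (568 and 360). Of 14 genes of mitochondrial transcription and RNA processing, 11 lay below 0, with a median of -0.15. Polrmt, the mitochondrial RNA polymerase, Tfam, which packs mitochondrial DNA, and Tfb2m, the polymerase's initiation factor, had ratios of -0.38, -0.38 and -0.37. Trmt10c had the lowest ratio of that list, -0.54, and Elac2 the highest, 0.15, with 0 past 1.5-fold. Regulators of mitochondrial biogenesis had a median of -0.03 over 8 genes, with 5 below 0. Nrf1, Gabpa and Yy1, transcription factors known to act on promoters of such genes, had ratios of 0.01, -0.01 and -0.04. Pprc1 had the highest, 0.48, and Myc the lowest, -0.40. Scaled on the hybridization controls, the medians of these lists except that of the ribosomal proteins without an Mrp symbol lay above 0.

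**Figure D4:**
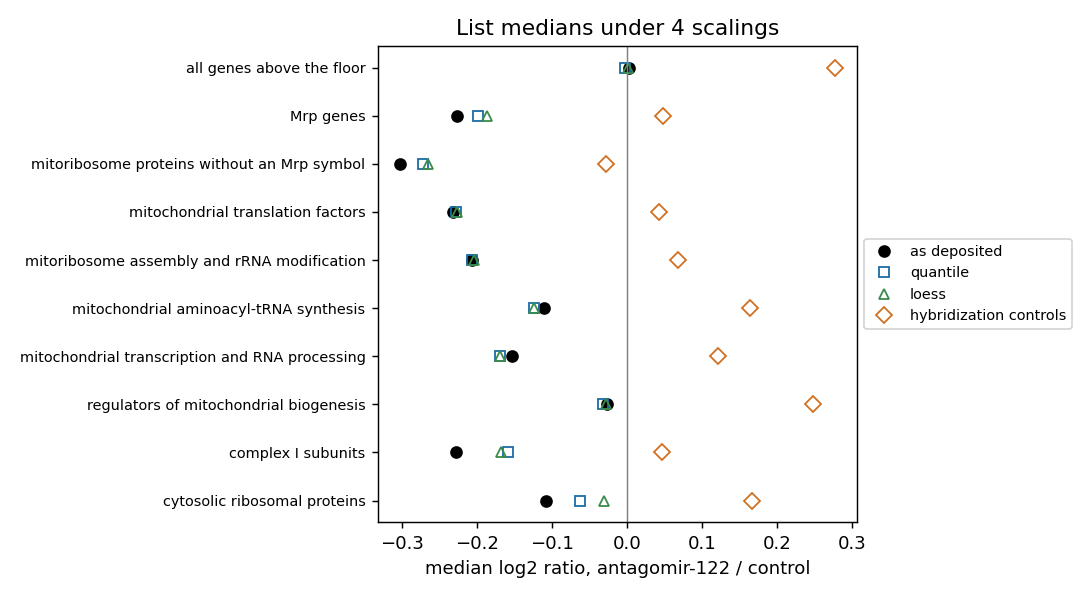
Median log2 ratio, antagomir-122 over control, of the Mrp genes, other lists of mitochondrial translation, complex I, cytosolic ribosomal proteins and all genes, under 4 scalings. The Mrp genes lie at -0.23 as deposited and at 0.05 on the hybridization controls, to the left of all genes at 0.00 and 0.28.

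Other large families of like kind were set beside them. Complex I subunits, some of whose partners the mitochondrial ribosome makes, were below 0 in 32 of 32 genes above the floor as deposited and in 13 on the hybridization controls, with a median of -0.23 as deposited. They ran from -0.47 for Ndufs8 (8305 and 11509) to -0.02 for Ndufa3 (8377 and 8495). Of all 10003 genes, 49.6% lay below 0 as deposited and 15.9% on the hybridization controls. Cytosolic ribosomal proteins had a median of -0.11 over 43 genes, with 32 below 0 as deposited and 3 on the hybridization controls. They ran from -0.74 for Rps27 (351 and 587) to 0.25 for Rps6 (963 and 812). Their median was -0.03 after loess correction, where that of the mitochondrial ribosomal proteins was -0.19. For 12 of these 43 genes both signals were above 16000, and 0 of the 76 mitochondrial ribosomal protein genes reached that level. As deposited, the median of the mitochondrial ribosomal proteins thus equalled that of complex I to the second decimal.

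**Figure D5:**
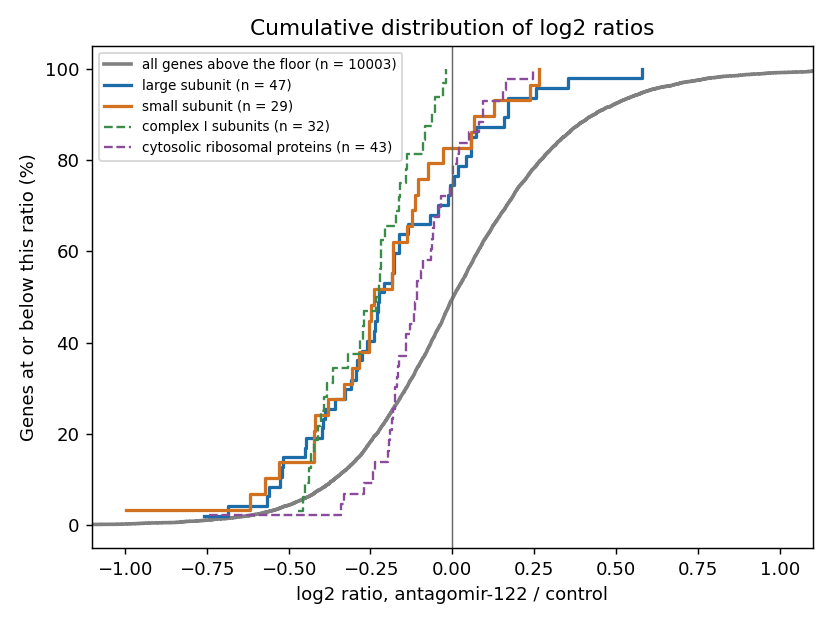
Share of genes at or below each log2 ratio, antagomir-122 over control as deposited, for all 10003 genes above the floor, the 47 large-subunit and 29 small-subunit genes, 32 complex I subunits and 43 cytosolic ribosomal proteins. The curves of both subunits run together to the left of all genes; scaling on the hybridization controls would shift every curve by 0.27 to the right.

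The members' promoters were searched for letters read by transcription factors known to act on genes of mitochondria, and for the E-box. RefSeq windows (GRCm38.p6) of 300 bases around a gene's start were given for 67 of the 76 genes in 73 windows. Letters were searched exactly, on both strands, and no motif contains another. CCGGAAG, the core read by ETS factors such as GABP, stood in 25 of the 73 windows (34.2%), in 17.1% of the 10517 windows of genes above the floor and in 8.86% of all 32851 windows. GCGCATGCG, from the site of NRF1, stood in 7 windows (9.59%), against 3.50% and 1.75%. AAGATGGCG, from the site of YY1, stood in 8 (11.0%), against 3.09% and 1.4%. CACGTG, the E-box, stood in 7 (9.59%), against 9.90% and 7.15%. The median GC content was 58.7% in the members' windows and 60.7% in those of genes above the floor. The median ratio was -0.23 for the 25 members with the ETS letters and -0.23 for those without. It was -0.40 for the 7 members with the NRF1 letters (Mrpl9, Mrpl10, Mrpl17, Mrpl22, Mrpl32, Mrpl39 and Mrps18b) and -0.20 for the rest. It was -0.21 for the 8 with the YY1 letters and -0.23 for those without, and -0.24 for the 5 with the E-box and -0.23 for those without. Of the 4 motifs, NRF1's thus had the widest gap, over few genes and with no test. A match is a description of these letters and not a site in use.

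The windows of Mrps27, Mrpl45 and Mrps22, of the 4 genes past 1.5-fold lower, are shown beside that of Mrpl11, which had the second highest on its brightest probe set, to let their starts be compared. Mrpl48, the other of these 4, is left out because it has 4 windows with different starts, and a window of Mrpl4 was not used here. They lie at chr13:99344536-99344835 (plus strand), chr11:97315466-97315765 (plus), chr9:98601630-98601929 (minus) and chr19:4962056-4962355 (plus), in the order shown, each read 5′ to 3′ along its gene. Capitals mark the searched letters on either strand. In the window of Mrps27 these are the ETS core on the reverse strand and the YY1 core on the forward strand, in that of Mrps22 the ETS core on the forward strand, and none of the 4 motifs was found in the others.
Mrps27: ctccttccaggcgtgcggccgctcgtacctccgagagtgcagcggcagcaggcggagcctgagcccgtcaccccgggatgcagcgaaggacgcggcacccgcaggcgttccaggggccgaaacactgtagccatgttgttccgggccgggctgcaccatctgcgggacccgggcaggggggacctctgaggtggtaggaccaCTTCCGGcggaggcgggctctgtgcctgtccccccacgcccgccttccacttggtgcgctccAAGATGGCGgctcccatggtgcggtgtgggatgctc
Mrpl45: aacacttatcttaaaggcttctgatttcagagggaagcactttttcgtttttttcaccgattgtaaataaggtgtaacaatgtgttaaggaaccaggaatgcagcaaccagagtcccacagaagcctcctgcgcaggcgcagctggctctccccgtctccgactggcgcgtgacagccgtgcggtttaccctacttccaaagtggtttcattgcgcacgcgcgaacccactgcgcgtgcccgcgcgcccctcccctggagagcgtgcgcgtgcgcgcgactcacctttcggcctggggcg
Mrps22: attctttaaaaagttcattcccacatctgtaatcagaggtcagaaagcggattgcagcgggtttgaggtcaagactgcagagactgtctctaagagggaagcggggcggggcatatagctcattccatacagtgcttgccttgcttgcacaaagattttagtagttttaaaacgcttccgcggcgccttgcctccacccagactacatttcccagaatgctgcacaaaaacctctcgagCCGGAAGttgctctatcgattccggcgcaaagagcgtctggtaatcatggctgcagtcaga
Mrpl11: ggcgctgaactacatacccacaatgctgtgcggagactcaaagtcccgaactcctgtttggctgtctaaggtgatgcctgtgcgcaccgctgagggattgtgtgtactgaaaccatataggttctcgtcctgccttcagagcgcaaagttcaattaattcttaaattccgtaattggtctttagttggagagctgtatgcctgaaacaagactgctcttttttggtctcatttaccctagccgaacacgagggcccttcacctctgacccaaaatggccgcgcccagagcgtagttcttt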

How the data were processed

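Liver RNA pooled from 3 mice per group was measured on 1 array per group. The authors' table held 1 linear intensity for each probe set and array. The submitters' processing notes name MAS5, and its version is not given in the sources used here. Trimmed means were equal on both arrays. Detection calls were not used here, so whether a dim probe set exceeded background is unknown. Names of genes came from the platform annotation, which can be old, looked up by gene identifier in RefSeq's table of GRCm38.p6: 34741 of 34945 single-gene probe sets were found and 0 symbols changed. Ratios were log2 of deposited intensities with no pseudocount, computed with Python 3.11.15, pandas 2.3.3 and statsmodels 0.14.6, and the calculation was tested on simulated data. The members and lists were chosen with earlier results of these data known. Genes named were those past 1.5-fold, the 10 highest and 10 lowest, those whose probe sets differed by over 0.5, those of special place, and the ends of each list. Groups were taken from the sample titles. Alternatives were median centring, quantile normalization, loess (span 0.3), hybridization-control scaling, other floors, a pseudocount of 50, other probe set choices, another subunit assignment, and thresholds of 1.4-fold and 2-fold. The number of arrays limits the precision.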

Additional observations from a re-analysis of the deposited data

How the results depend on the processing

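Scaling on the hybridization controls reversed the median ratios, from -0.23 to 0.049 for all members, from -0.22 to 0.050 for the large subunit and from -0.24 to 0.036 for the small subunit, because it adds 0.27 to every ratio, and it changed the counts past 1.5-fold to 2 higher and 1 lower. Loess correction moved the median to -0.19 for all members and -0.18 for the large subunit, and a floor at the 80th percentile moved that of the small subunit to -0.18. The second probe sets, an alternative chosen after seeing the data, had a median of -0.26 over 26 genes. With 0 members at least 1.5-fold higher as deposited, quantile normalization and loess correction each gave 1. At 1.4-fold 1 member was higher and 11 were lower, and at 2-fold 0 were higher and 0 were lower. The shares of all genes past these thresholds, or past 1.5-fold under other settings, are not given here. These counts therefore cannot be read as more or fewer than among all genes. The other 57 of the 71 recomputed values stayed within a limit set for each. For the median of all members this limit was 0.03, the probe set spread of 0.26 over the square root of 76 genes. It takes genes as independent and holds no spread between animals, so staying within it is no measure of replication. Among these 57 values the difference of large minus small subunit took either sign, between -0.03 and 0.04. No paired analysis was possible because each group had 1 array, and no replicate could be left out. Ratios spread more widely between dim members than between bright ones, and whether the error of a dim member is wider was not measured. Without replicate arrays the spread between animals is unknown.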
